A study of Mus musculus with 22 samples.

Results

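The 10 genes Il1a, Il1b, Il18, Il33, Il1rn, Il1r1, Nlrp3, Pycard, Casp1 and Gsdmd encode the alarm cytokines of the interleukin-1 family, their receptor and antagonist, and the inflammasome that releases some of them. They were taken by gene symbol from both deposited count tables, and all 10 were found among the 54532 genes of each table. Bulk RNA was sequenced from retina and choroid of the mouse, dissected as 1 tissue, after laser burns that start choroidal neovascularisation, a growth of choroidal vessels used as a model of neovascular macular degeneration. The wild-type set (C57BL/6J, adult mice) held 16 libraries, with 4 from age-matched controls without neovascularisation and 4 from each of day 3, day 7 and day 14 following laser injury. The second set held 6 libraries, all at day 3 following laser injury: 3 from Rag2-/- mice, which lack T and B cells, and 3 from Rag2-/-γc-/- mice, which also lack the common gamma chain (Il2rg) that natural killer cells need (Rag2 KO and Rag2 gc KO in the plots). All 6 Rag2 libraries came from lasered eyes, so this set holds no unlasered control. The 4th control library is titled as having no neovascularisation although its treatment tag names the laser, and it stayed in the control group by its title.

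Interleukin-1 alpha, interleukin-1 beta, interleukin-18 and interleukin-33 are secreted or released by damaged and activated cells. Interleukin-1 beta and interleukin-18 are made as precursors that caspase-1 cuts. Caspase-1 is switched on when a sensor such as NLRP3 assembles with the adaptor ASC, the product of Pycard, and it also cuts gasdermin D, which then forms pores in the cell membrane. Interleukin-1 alpha and beta signal through the receptor IL1R1, which the antagonist IL1RN blocks. RNA levels do not report cutting, assembly or release.

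The sequences just upstream of the start sites of 4 members are shown because Il1a and Il1rn are the cytokine and antagonist whose levels moved most closely with each other among the cytokines and their antagonist, while Il1b and Il18 are the cytokines that caspase-1 cuts. Each is the 250 bases before the start, 5′ to 3′ on the gene's strand, from RefSeq on GRCm38.p6, where 9 of the 10 members were matched. Capitals mark matches on either strand to the AP-1 motif TGANTCA or the NF-kB motif, which is GGGA, then any 4 bases, then CC. The RefSeq start of Il18 lies before the start given in the count table. The windows are chr2:129309973-129310222 (minus strand) for Il1a, chr2:129371140-129371389 (minus strand) for Il1b, chr2:24336610-24336859 (plus strand) for Il1rn and chr9:50554450-50554699 (plus strand) for Il18.
Il1a: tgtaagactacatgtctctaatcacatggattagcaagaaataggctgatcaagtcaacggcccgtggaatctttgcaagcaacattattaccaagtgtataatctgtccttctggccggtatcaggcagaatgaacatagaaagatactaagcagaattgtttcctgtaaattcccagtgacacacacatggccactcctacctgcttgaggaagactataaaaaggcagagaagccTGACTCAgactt
Il1rn: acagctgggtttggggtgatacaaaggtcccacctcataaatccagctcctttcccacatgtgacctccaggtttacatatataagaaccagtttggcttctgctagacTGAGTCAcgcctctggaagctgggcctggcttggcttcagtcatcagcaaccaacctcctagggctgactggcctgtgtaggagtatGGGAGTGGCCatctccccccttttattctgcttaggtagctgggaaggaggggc
Il1b: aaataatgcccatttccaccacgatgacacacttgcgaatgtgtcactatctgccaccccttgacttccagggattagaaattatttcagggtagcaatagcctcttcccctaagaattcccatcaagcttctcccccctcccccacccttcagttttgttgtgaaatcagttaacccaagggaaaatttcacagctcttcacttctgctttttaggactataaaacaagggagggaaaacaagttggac
Il18: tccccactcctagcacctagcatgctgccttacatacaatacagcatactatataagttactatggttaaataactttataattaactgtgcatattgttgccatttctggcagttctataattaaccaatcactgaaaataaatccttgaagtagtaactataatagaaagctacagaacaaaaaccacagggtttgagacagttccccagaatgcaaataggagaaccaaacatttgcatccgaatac
The Il1a window held 1 AP-1 match, 12 bases before the start. The Il1rn window held an AP-1 match at 141 and an NF-kB match at 54 bases before the start. The Il1b and Il18 windows held neither. Of 32851 windows of the same length over all genes, 6.75% held the AP-1 letters and 17.6% the NF-kB letters. In all, 5 motifs were searched. The C/EBP motif TTNNGNAA, in 36.8% of windows, had a match in 6 of the 9 members (Il1a, Il1b, Il33, Il1r1, Nlrp3 and Pycard). The PU.1 motif GAGGAA, in 23.3% of windows, had one in Il1a, Pycard and Casp1, and in Il1a it overlapped the C/EBP match. The interferon element, GAAA, any 2 bases and GAAA, in 2.98% of windows, had none, and Nlrp3 had the only other NF-kB match among the members. A match is a run of letters and not a measured binding site.

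Depth was 15033983 to 16848254 counts per library in the wild-type set and 27227847 to 30315086 in the Rag2 set. The libraries differed in markers of tissues other than retina and choroid. The 13 cornea and conjunctiva markers (Krt5, Krt14, Krt12, Krt13 and others) summed to 2557 to 7793 counts-per-million (CPM) in control, 4869 to 36181 at day 3, 5193 to 27546 at day 7 and 5838 to 20455 at day 14, with none at 0. They summed to 11.5 to 20.2 CPM in the 6 Rag2 libraries, where 2 to 6 of the 13 were at 0. The 15 lens markers summed to 198.7 to 14053 CPM in control and 29613 to 56707 at day 3. Neutrophil markers (12 genes) summed to 3.67 to 18 CPM in control and 13.6 to 263 at day 3. Most of this sum was Ltf, at 2.03 to 15.6 CPM in control and 8.99 to 145 at day 3. Ly6g was at 0 to 0.191 and 0 to 0.178 CPM. Only 4 of the 12 passed the count filter, and 3 of these were called higher at day 3. Of the monocyte and macrophage markers, 9 of 11 tested rose at day 3. Microglia markers (10 genes) summed to 57 to 66.3 CPM in control and 179 to 370 at day 3, with 5 of 10 called higher. The largest part at day 3 was Olfml3, at 75.2 to 229 CPM against 9.77 to 21.5 in control. P2ry12 was at 1.17 to 1.72 CPM in control and 1.85 to 3.57 at day 3, and Siglech overlapped between the groups. Fibroblast and stroma markers (10 genes) summed to 333 to 395 and 420 to 1003 CPM, with 3 of 10 called higher. Lens scores (mean log2 CPM of the markers) were 2.87 to 7.49 in control and 9.63 to 10.6 at day 3, without overlap. A fit with lens and cornea covariates therefore cannot separate lens content from the day 3 difference. The part of these markers in the members' results was not tested. Day 3 replicate 3 had the highest cornea and neutrophil sums of the wild-type set. In bulk RNA, fewer cells of a type and less RNA per cell cannot be told apart. In Rag2 KO, Il2rg had 37, 62 and 28 counts, and in Rag2 gc KO it had 0 in all 3 libraries, as their label states. Rag2 had 0 or 1 count in these libraries and 0 to 4 in wild type, so it checks little. The protocol gives a figure of 6 to 8 mice, the same for every group, against 4 or 3 libraries per group. How these mice relate to the libraries was not settled here. The labels do not say that libraries came from separate animals, so p-values measure the spread between these samples.

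**Figure D1:**
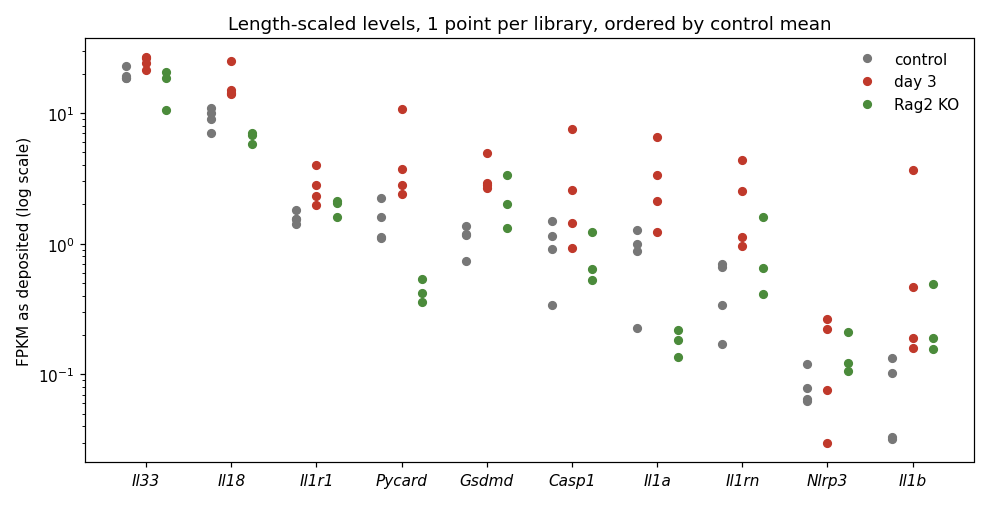
Deposited FPKM (y axis, log scale) of each of the 10 genes in control, day 3 and Rag2 KO libraries, 1 point per library, ordered by the control mean. Il33 and Il18 sit above the other members in control, and Nlrp3 and Il1b are lowest.

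Per length of transcript, Il33 was the most abundant member in control. Its level was 19.9 ± 2.16 FPKM (a count scaled by library size and gene length; SD, n = 4), followed by Il18 at 9.24 ± 1.64 FPKM. Il1r1 came next at 1.58 ± 0.161, then Pycard at 1.52 ± 0.542, Gsdmd at 1.12 ± 0.265, Casp1 at 0.972 ± 0.483, Il1a at 0.839 ± 0.441 and Il1rn at 0.469 ± 0.255 FPKM (SD, n = 4). Nlrp3 (0.0814 ± 0.0266) and Il1b (0.0754 ± 0.0508) were lowest. From Il1r1 down, each neighbour in this order overlapped the next in its range over the 4 libraries, except that Il1rn and Nlrp3 did not. Il33 and Il18 did not overlap each other, nor did Il18 and Il1r1.

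**Figure D2:**
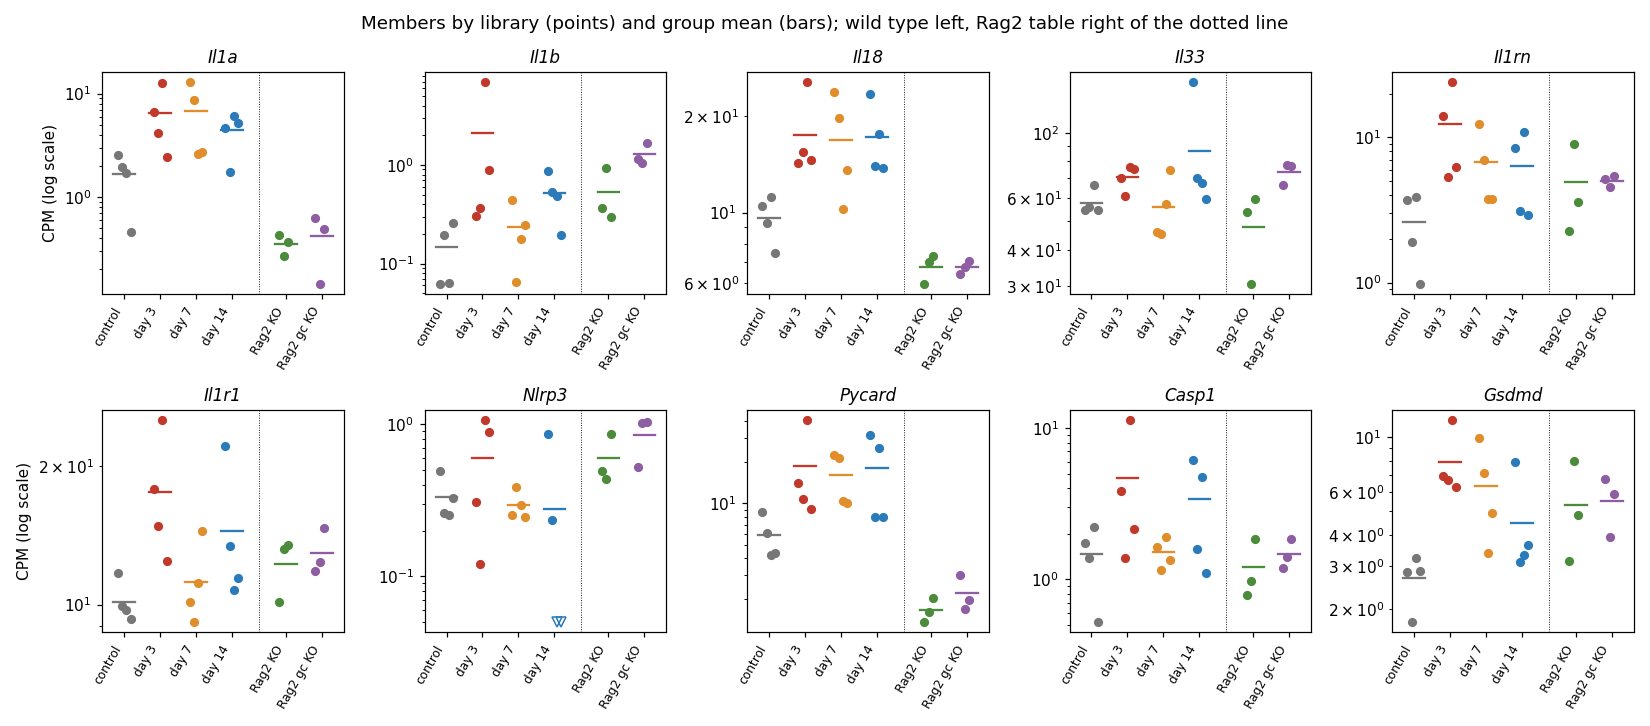
CPM (y axis, log scale) of each member in all 22 libraries, with group means as bars; the dotted line separates the 2 tables, which were scaled separately, and open triangles are libraries at 0. For Il18 and Gsdmd all 4 day 3 points lie above all 4 control points.

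At day 3 after the laser, Gsdmd, Il1rn, Il18 and Il1r1 rose against control, 4 of the 8 members that could be tested. No member fell. Il1b and Nlrp3 had too few counts to pass the filter in wild type. Of all 18657 genes tested, 14.7% were called at day 3 and 6.97% were called higher and 7.77% lower. The median log2 fold change was 1.61 over the 8 tested members and 0.00876 over all tested genes. How many were called depended on the analysis of the same counts. Across 9 other settings 0 to 8 members were called, beside 579 to 7171 of all genes. Gsdmd was called in 8 of the 9, Il1rn in 6, and Il18 and Il1r1 in 5 each. In the 8 runs that each left out 1 library 0 to 3 members were called, beside 292 to 2409 of all genes. These counts are not all out of the 8 tested members. Il1b was among those called with DESeq2, with no filter, and without day 3 replicate 1 or replicate 2. With lens and cornea scores as covariates no member was called and the median was 0.354. In that fit Il1rn was at 0.98, Il1a at 0.76, Il18 at 0.31 and Il1r1 at 0.13. Lens scores did not overlap between control and day 3, so that fit cannot separate lens content from the laser. Without day 3 replicate 3 no member was called and the median was 0.85.

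The cytokine Il18 (ENSMUSG00000039217, chr9:50554827-50581840 on mm10) was at 10.5, 9.25, 11.2 and 7.47 CPM in the 4 control libraries. At day 3 it was at 14.3, 15.5, 25.6 and 14.6 CPM. The groups did not overlap, and replicate 3 stood above the other day 3 libraries. The log2 fold change was 0.86 ± 0.274 (SE, edgeR adjusted p = 0.0474). The call was lost in all 8 runs that left out 1 library, with adjusted p from 0.0545 to 0.168, the highest without day 3 replicate 3. At day 7 Il18 was at 23.9, 19.8, 10.2 and 13.6 CPM, which overlapped control, and at day 14 at 23.5, 14, 17.6 and 13.8 CPM, which did not. Neither difference was called (edgeR adjusted p = 0.0664 and 0.104).

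Il1a (ENSMUSG00000027399, chr2:129299610-129309972), an alarm cytokine that epithelial cells store, was at 2.54, 1.97, 1.72 and 0.455 CPM in control and at 6.61, 4.16, 12.8 and 2.44 CPM at day 3. The day 3 value of replicate 4 lay within the control range. Its log2 difference was 1.95 ± 0.65 (SE, edgeR adjusted p = 0.0543), and at day 7, with 13, 8.76, 2.6 and 2.7 CPM, it was 2.01 (edgeR adjusted p = 0.0587), without overlap with control. At day 14 Il1a was at 4.69, 1.76, 6.04 and 5.26 CPM. The lowest Il1a value of the wild-type set, 0.455 CPM, was in control replicate 4, which also had the lowest cornea marker sum. The same library was lowest in wild type for Il1rn, Casp1 and Il18 too. Whether cornea content had a part in these values was not tested.

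Il1b (ENSMUSG00000027398, chr2:129364570-129371139) was close to the limit of detection. The 4 control libraries held 1, 3, 1 and 4 counts (0.0619 to 0.26 CPM), and 3 counts correspond to 0.186 to 0.2 CPM there. At day 3 it was at 0.306, 0.362, 6.95 and 0.892 CPM, above control in 4 of 4 libraries, but 105 of its 131 counts came from replicate 3. An exact permutation test gave p = 0.0286, the smallest that 4 against 4 allows, and 0.342 after Benjamini-Hochberg adjustment over 12 such comparisons. Without replicate 3 the day 3 mean was 0.52 ± 0.323 CPM (SD, n = 3). It was at 0.0644 to 0.443 CPM at day 7 and 0.195 to 0.866 CPM at day 14. With no filter on low counts edgeR gave at day 3 a log2 change of 3.83 ± 0.986 (SE, adjusted p = 0.0425).

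Il33 (ENSMUSG00000024810, chr19:29925114-29960718), a nuclear alarm cytokine, was at 54.7, 55.8, 66.3 and 54.5 CPM in control and at 70.2, 61.1, 76.7 and 75.5 CPM at day 3. These ranges overlapped, and the log2 difference of 0.29 ± 0.245 (SE, edgeR adjusted p = 0.384) was not called. At day 7 Il33 was at 46.1, 45.2, 57.1 and 74.8 CPM. At day 14 it was at 149, 70.3, 67.3 and 59.6 CPM, and replicate 1 stood above the other 3. Neither day was called (edgeR adjusted p = 0.903 and 0.168).

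The antagonist Il1rn (ENSMUSG00000026981, chr2:24336853-24351494) showed the largest log2 fold change of the tested members at day 3. It was at 3.71, 1.9, 3.88 and 0.975 CPM in control and at 14, 5.31, 24.1 and 6.24 CPM at day 3, with no overlap. The log2 fold change was 2.24 ± 0.623 (SE, edgeR adjusted p = 0.0328), and the call was kept in 2 of 8 runs that left out 1 library. At day 7 it was at 12.5, 6.96, 3.79 and 3.74 CPM and at day 14 at 8.45, 3.11, 10.9 and 2.92 CPM, and both overlapped control. The receptor Il1r1 (ENSMUSG00000026072, chr1:40225080-40317257) was at 11.7, 9.9, 9.72 and 9.29 CPM in control and at 17.8, 14.8, 25.2 and 12.4 CPM at day 3, again with no overlap. Its log2 fold change was 0.79 ± 0.251 (SE, edgeR adjusted p = 0.0478), and the call was lost in all 8 runs that left out 1 library (adjusted p from 0.0506 to 0.17). At day 7 it was at 9.15 to 14.4 CPM, which overlapped control.

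Of the inflammasome genes, Gsdmd (ENSMUSG00000022575, chr15:75862327-75867408), the pore protein, rose at day 3 and day 7. It was at 2.85, 1.77, 3.24 and 2.86 CPM in control, at 6.98, 6.7, 11.7 and 6.3 CPM at day 3 and at 9.93, 7.15, 3.37 and 4.91 CPM at day 7. Neither day overlapped control. The log2 fold change was 1.56 ± 0.376 at day 3 (SE, edgeR adjusted p = 0.0223) and 1.24 ± 0.375 at day 7 (SE, edgeR adjusted p = 0.0481). The day 3 call was kept in 3 of 8 runs that left out 1 library and the day 7 call in 2 of 8, and with the replicate number as a block the day 7 call was lost. With lens and cornea covariates the day 3 value was 0.83 (edgeR adjusted p = 0.212). At day 14 Gsdmd was at 7.94, 3.11, 3.32 and 3.63 CPM.

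The adaptor Pycard (ENSMUSG00000030793, chr7:127989708-127993867) was at 8.72, 6.1, 4.19 and 4.35 CPM in control and at 14.1, 10.7, 40.5 and 9.04 CPM at day 3. The groups did not overlap, but the log2 difference of 1.67 ± 0.554 missed the threshold (SE, edgeR adjusted p = 0.0541). It was 0.95 without day 3 replicate 3 and 0.40 with lens and cornea covariates. At day 7 it was at 22.6, 21.6, 10.5 and 10.1 CPM, also without overlap. The protease Casp1 (ENSMUSG00000025888, chr9:5298517-5307265) was at 1.73, 1.38, 2.22 and 0.52 CPM in control and at 3.86, 1.39, 11.3 and 2.14 CPM at day 3, with overlap. Its difference was 1.66 ± 0.656 (SE, edgeR adjusted p = 0.0875), without day 3 replicate 3 it was 0.75, and with lens and cornea covariates it was -0.066. The sensor Nlrp3 (ENSMUSG00000032691, chr11:59541568-59566956) had 0 to 16 counts per wild-type library. It was at 0.254 to 0.495 CPM in control and 0.121 to 1.06 CPM at day 3, and a difference was not detectable at this depth (exact permutation p = 0.371, n = 4 per group).

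**Figure D3:**
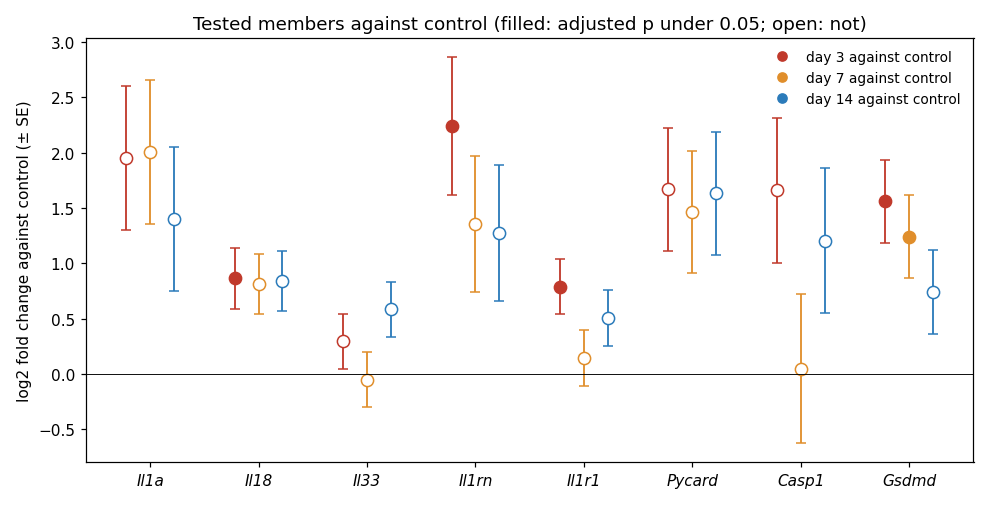
Log2 fold change against control (y axis) of the 8 tested members at day 3, day 7 and day 14, with the SE as bars; filled points have an adjusted p under 0.05. Gsdmd is filled at day 3 and day 7, and Il18, Il1rn and Il1r1 at day 3.

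At day 7, 1 of 8 tested members was called, Gsdmd, where 10.5% of all tested genes were called and 3.62% were higher. At day 14 none was called by edgeR, where 0.273% of genes were, and 4 of 8 members had an unadjusted p under 0.05, as did 24.8% of all tested genes; DESeq2 called 2 members. The groups did not overlap, with the later group higher, for 5 tested members at day 3 (17.4% of all tested genes), 3 at day 7 (11.3%) and 1 at day 14 (6.76%). These 3 comparisons share the control libraries. Between days no member was called. The percentage of all genes called was 0 for day 7 against day 3, 0.00536 for day 14 against day 3 and 0 for day 14 against day 7. Members with an unadjusted p under 0.05 were Casp1 and Il1r1 for day 7 against day 3, which differed by -1.61 and -0.65 on the log2 scale, Gsdmd for day 14 against day 3 (-0.82) and Il33 for day 14 against day 7 (0.63). The shares of all tested genes with an unadjusted p under 0.05 in these comparisons were 6.13%, 6.77% and 3.33%. A change over time after day 3 was therefore not shown for any member. In the authors' deposited table of comparisons, 8 members had an adjusted p under 0.05 at day 3, 5 at day 7 and 2 at day 14, beside 7968, 5676 and 1110 genes. How many genes the authors tested was not counted here, so no share is given. Their 8 at day 3 included Il33 and not Il1b, while the 8 called with DESeq2 here included Il1b and not Il33.

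**Figure D4:**
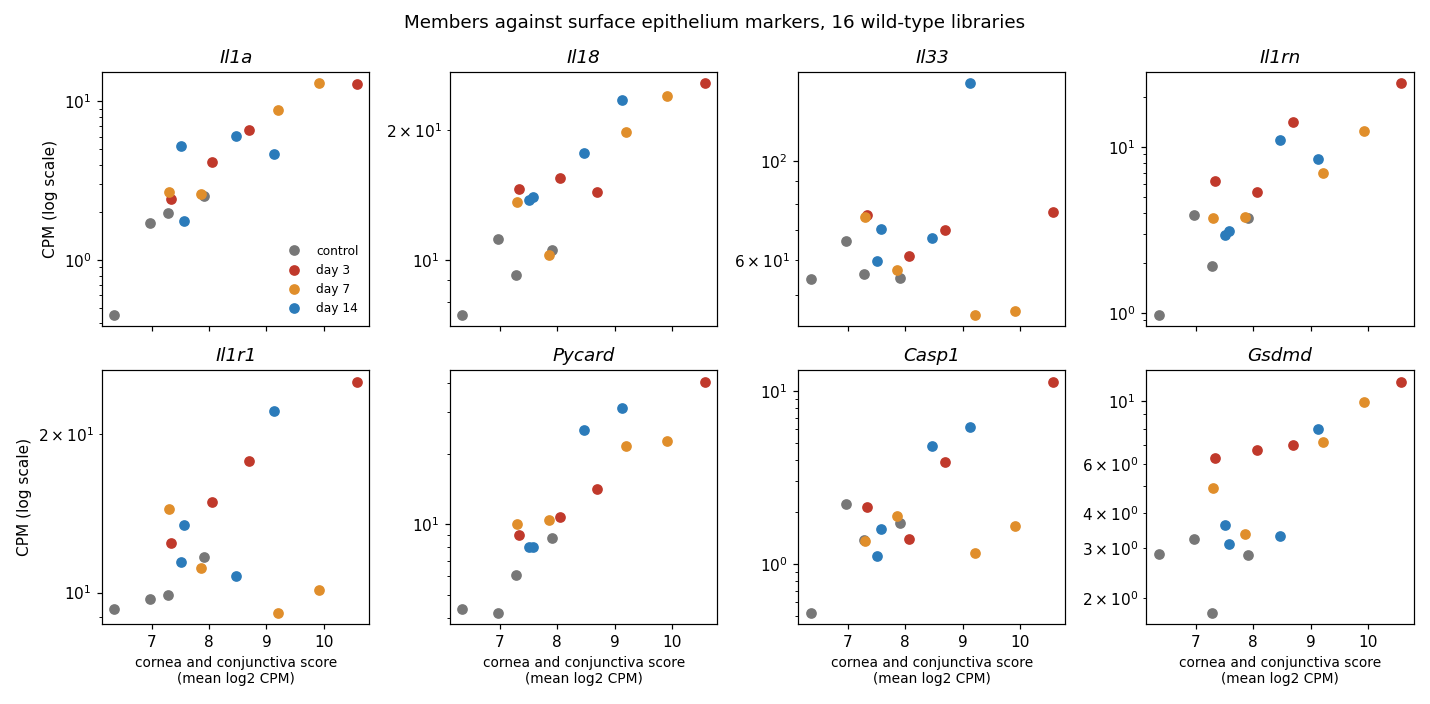
CPM (y axis, log scale) of the 8 tested members against the mean log2 CPM of the cornea and conjunctiva markers (x axis) in the 16 wild-type libraries, coloured by group. Pycard, Il1a, Il18 and Il1rn are higher where the marker score is higher, and Il33 shows no such order with this score.

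Within groups, most members varied with the cornea and conjunctiva markers, and also with those of neutrophils, monocytes and macrophages. After subtracting group means, Pearson's r with the cornea score over the 16 libraries was 0.915 for Pycard (Spearman's rho 0.853; permutation p = 1e-05, the smallest the 100000 resamples can give, 0.00024 adjusted over 24 relations). It was 0.864 for Il18 (rho 0.826, permutation p = 0.00087, adjusted 0.00418), 0.862 for Il1a (rho 0.821, permutation p = 0.00046, adjusted 0.00276) and 0.854 for Il1rn (rho 0.806, permutation p = 0.00034, adjusted 0.00272). Without the 2 libraries farthest from the median of the score, taken after group means were subtracted, these were 0.894, 0.772, 0.807 and 0.793. For Gsdmd and Casp1 r was 0.711 and 0.697 (permutation p adjusted 0.0146 and 0.0137), and for Il1r1 0.439 (adjusted 0.183). For Il33 r was 0.0542 (rho -0.0794, permutation p = 0.842). The neutrophil score averages only the 4 of 12 markers that passed the count filter, Ltf among them, so it is a narrow measure. It gave r = 0.853 with Il1rn (rho 0.929, permutation p = 3e-05, adjusted 0.00036) and 0.818 with Casp1 (rho 0.821, permutation p = 0.00111, adjusted 0.00444). It also gave 0.743 with Pycard, 0.72 with Il1a, 0.701 with Il18 and 0.547 with Gsdmd (permutation p adjusted 0.0127, 0.00542, 0.00786 and 0.0285). The monocyte and macrophage score gave r = 0.734 with Il33 (rho 0.656, permutation p = 0.0162, adjusted 0.0259). With that score r was 0.725 for Gsdmd, 0.717 for Casp1, 0.713 for Il18, 0.681 for Il1r1 and 0.634 for Il1rn (permutation p adjusted 0.017, 0.0144, 0.0137, 0.0469 and 0.0285), and for Pycard and Il1a it was 0.616 and 0.392 (adjusted 0.0604 and 0.183). Without the 2 farthest libraries the macrophage values were 0.302 to 0.552, with Il33 at 0.532. By Spearman's rho some of these relations did not pass 0.05. They were Gsdmd with the cornea score (permutation p adjusted 0.0531) and the neutrophil score (0.0503), and Il1r1 with the macrophage score (rho 0.491, adjusted 0.144). The 3 scores were not separated from each other here. The Rag2 libraries were all at day 3 after the laser, and their cornea markers were near 0. In them the members did not all sit on 1 side of the wild-type controls, which had no neovascularisation. Pycard was at 1.35 to 2.98 CPM (4.19 to 8.72 in control), Il18 at 5.97 to 7.31 (7.47 to 11.2 in control) and Il1a at 0.144 to 0.634 (0.455 to 2.54 in control). Il1rn was at 2.28 to 8.97 CPM (0.975 to 3.88 in control), Gsdmd at 3.14 to 8 (1.77 to 3.24 in control), Casp1 at 0.792 to 1.85 (0.52 to 2.22 in control), Il1r1 at 10.1 to 14.7 (9.29 to 11.7 in control) and Il33 at 30.5 to 77.7 (54.5 to 66.3 in control). At day 3 in wild type the ranges were 9.04 to 40.5 CPM for Pycard, 14.3 to 25.6 for Il18 and 2.44 to 12.8 for Il1a. They were 5.31 to 24.1 for Il1rn, 6.3 to 11.7 for Gsdmd and 1.39 to 11.3 for Casp1. For Il1r1 and Il33 they were 12.4 to 25.2 and 61.1 to 76.7 CPM. The Rag2 values come from a separate table and genotype, and against control they also differ by the laser. No test was made across tables.

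By level over the 16 wild-type libraries, the gene most like Il1a was Prss8 (Pearson's r 0.964), followed by Prss27 and Plet1. For Pycard it was Fxyd3 (0.972), for Il1rn Ly6a (0.969), for Il18 Vamp3 (0.954), for Gsdmd Micall2 (0.945), for Casp1 Slc5a9 (0.929), for Il33 Chpt1 (0.921) and for Il1r1 Echdc1 (0.894). Gsdmd also followed Rela, a subunit of NF-kB (0.938). Among members, Il1a and Il1rn had r = 0.873 and Il18 and Pycard 0.897, while Il1a and Il33 had 0.0145. These are descriptions over libraries that share groups and tissue content.

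Of 24 listed genes that interleukin-1 is known to induce, 17 passed the count filter and were tested. At day 3, 12 of the 17 rose, with a median log2 fold change of 2.6, where 6.97% of all tested genes rose. A gene with few counts in control can pass the filter through its day 3 libraries alone. The count and the median may therefore lean towards genes that are high at day 3. Lcn2, an iron-binding defence protein, was at 5.08 ± 1.08 CPM in control and 92.1 ± 67.8 CPM at day 3 (SD, n = 4). Its log2 difference was 4.18 ± 0.635 (SE, edgeR adjusted p = 0.00527). Bcl3, a nuclear NF-kB regulator, rose by 3.46 (edgeR adjusted p = 0.00779), Lif, a cytokine, by 2.12 (0.00782) and Socs3, an inhibitor of cytokine signalling, by 2.68 (0.00782). At day 7 Bcl3 alone was called in this list, and at day 14 none. These genes also respond to other signals.

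Other pathway lists gave fewer calls, to be read against the same 6.97% of all genes called higher and 7.77% called lower. The same limit of the count filter holds for lists with untested genes. Of 10 tested caspases, gasdermins and membrane rupture genes, 5 rose at day 3, among them the caspases Casp8 (1.74) and Casp4 (2.72) and the kinase Ripk3 (3.57, all log2 fold changes), and Casp8 was also called at day 7. Of 19 signalling genes below the receptors, 5 rose at day 3, with the adaptor Myd88 at 1.17 and Rela at 0.71, and Ikbkg, a subunit of the kinase that activates NF-kB, fell by 0.47 on the log2 scale. Of 13 inflammasome activators and regulators, the guanylate-binding proteins Gbp3, Gbp5, Gbp7 and Gbp2 rose (log2 fold changes 0.89 to 1.51) and Tnfaip3, an inhibitor of NF-kB, fell by 0.94. Of 8 other tested sensors Naip5 rose (2.38), of 7 other receptors and decoys the decoy Il1r2 rose (2.18), and of 5 other ligands and antagonists Il1f9 (2.63) and Il1f8 (2.17), the symbols the tables use for Il36g and Il36b. Cornea, lens, neutrophil, macrophage, microglia and stroma markers were also higher in these day 3 libraries, and their part in these results was not tested.

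**Figure D5:**
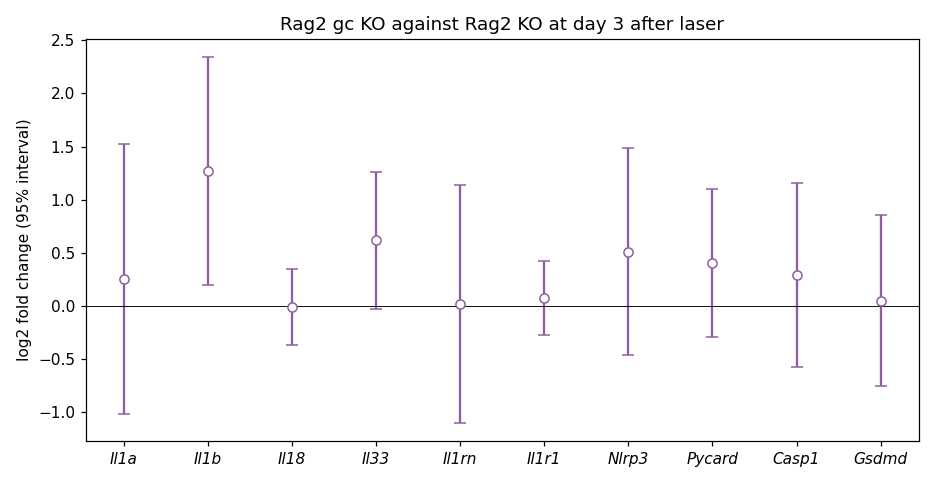
Log2 fold change of Rag2 gc KO against Rag2 KO (y axis) for the 10 members, with 95% intervals of the edgeR model; no point passed an adjusted p of 0.05. The interval of Il1b alone excludes 0, before adjustment.

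Between the Rag2 genotypes at day 3 after the laser no member was called by edgeR among the 10 tested. Of all 18923 genes tested 0.465% were called, and 1 of 10 members, Il1b, had an unadjusted p under 0.05, as did 14.7% of all tested genes. Il1b was at 0.363, 0.937 and 0.298 CPM in Rag2 KO and at 1.16, 1.04 and 1.66 CPM in Rag2 gc KO, with no overlap. Its log2 difference was 1.27 (95% interval 0.20 to 2.34), with an edgeR adjusted p = 0.276. Il33 was at 53.9, 30.5 and 59.5 CPM in Rag2 KO and at 66.3, 77.7 and 77.1 CPM in Rag2 gc KO, also with no overlap. Its difference was 0.62 (interval -0.024 to 1.26, edgeR adjusted p = 0.353), and DESeq2 called it (adjusted p = 0.0368). Higher values without overlap were found for 11.5% of all tested genes in this comparison. Summed microglia markers were 83.8 to 101 CPM in Rag2 KO and 146 to 195 CPM in Rag2 gc KO, without overlap and with 2 of 10 called higher. Monocyte and macrophage markers were 206 to 271 and 246 to 611 CPM, with overlap and none called. Their part in these differences was not tested.

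The other members differed less. Il18 was at 5.97, 7.03 and 7.31 CPM in Rag2 KO and at 6.41, 6.74 and 7.08 CPM in Rag2 gc KO, and its interval was -0.36 to 0.35 on the log2 scale. That of Il1r1 was -0.27 to 0.42. Nlrp3, at 0.435 to 0.861 and 0.522 to 1.03 CPM, had an interval of -0.46 to 1.49. Pycard (-0.29 to 1.10), Casp1 (-0.57 to 1.16), Gsdmd (-0.76 to 0.86), Il1rn (-1.10 to 1.14) and Il1a (-1.01 to 1.53) had intervals that include both a rise and a fall. Of the related lists, the IL-1-induced genes gave 1 call of 20 tested, the adhesion molecule Vcam1, at 30.8 ± 1.33 CPM in Rag2 gc KO against 20.1 ± 0.225 CPM (SD, n = 3; log2 fold change 0.62, edgeR adjusted p = 0.0202), and the other 6 lists gave none.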

How the data were processed

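The authors deposited 1 table per set, with raw counts per gene and library from featureCounts 1.5.0-p3 on mm10, per the submitters' processing notes. For the aligner, the annotation and the strand the sources used here give nothing. The deposited FPKM equal count over length times 1 constant per library and were used for levels between genes. The authors' deposited table of comparisons gives log2 fold changes, p-values and adjusted p-values per the file headers; only adjusted p-values were counted here, and its group means were not used.

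Counts were tested with edgeR 4.0.16 in R 4.3.3: filterByExpr (minimum count 10, total 15), TMM factors, a robust quasi-likelihood fit over 16 wild-type or 6 Rag2 libraries, Benjamini-Hochberg adjustment over all tested genes, and calls at an adjusted p under 0.05. CPM use the same factors. Scores are mean log2 CPM (prior count 2) of the listed markers that passed the filter. Il1b and Nlrp3, below the wild-type filter, had two-sided exact permutation tests. Intervals and floors of 3 counts cover counting or model error only. All 10 members have the same start and end in GENCODE M21. The fit was tested on simulated data.

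The 9 other wild-type settings were DESeq2 1.42.0, limma 3.58.1 voom, DESeq2 size factors, library totals, no filter, only the groups compared, a replicate block, lens and cornea covariates, and leaving out 3 libraries together (day 3 replicate 3, day 7 replicate 2, day 14 replicate 1). These 3 are not the highest in cornea or lens markers throughout: day 7 replicate 1, which was kept, had more of both than day 7 replicate 2. Each library was also left out in turn. The members, lists, 5 motifs, settings and naming rule were chosen with earlier results of these data known. The rule names all members, up to 4 called genes with the smallest p per list, and the 3 genes most like each member. Genes named as Il1f8 and Il1f9 were matched by synonym. Some genes counted in a list are not reported here by name. Members of lists named beyond the rule were chosen after their values were seen. Libraries were compared in pairs, and none of a group agreed within sampling noise.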

Additional observations from a re-analysis of the deposited data

Results flagged for a closer look

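In 4 of 40 groups of 4 libraries, 1 library stood apart from the others by Dixon's criterion, which chance meets in about 1 of 20 groups. Il18 at day 3 was 25.6 CPM in replicate 3 against 14.3 to 15.5 CPM in the others. Gsdmd at day 3 was 11.7 CPM in replicate 3. Gsdmd at day 14 was 7.94 CPM in replicate 1. Il33 in control was 66.3 CPM in replicate 3. Day 3 replicate 3 also had the highest cornea marker sum of the 16 wild-type libraries, and its part in these values was not tested.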

How the results depend on the processing

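The day 3 call of 4 members depends on the analysis. Genes called over the whole table are given in brackets beside the members called. Members called at day 3 numbered 8 with DESeq2 (4665), 7 with only the groups compared (7171) and 6 with the replicate block (2897). They numbered 4 with DESeq2 size factors (2731) or library totals (2409), and 2 with limma voom (2479) or no filter (1406). Without the 3 libraries left out together they numbered 2 (4168), and with lens and cornea covariates 0 (579). Leaving out 1 library gave 0 to 3, and 0 without any 1 of the 4 controls or without day 3 replicate 3. The day 3 counts include Il1b with DESeq2, with no filter, and without day 3 replicate 1 or replicate 2. At day 7 members called numbered 4 with DESeq2 (3603), 3 with only the groups compared (4485) and 2 without the 3 libraries (3686). The replicate block (1691) gave 1, which was Il1rn and not Gsdmd. Voom (2026), no filter (751) and covariates (1600) gave 0. With 1 library left out members called numbered 0 to 3 (3 without day 7 replicate 3, 2 without replicate 4, otherwise 0). DESeq2 called 2 at day 14 and 1 between Rag2 genotypes. Day 14 against day 3 gave 0 to 1 (Gsdmd without day 14 replicate 1).

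Genes called over the whole table moved too. DESeq2 called 4665 at day 3, 3603 at day 7, 1679 at day 14, 45 for day 7 against day 3, 103 for day 14 against day 3 and 693 between Rag2 genotypes. Only the groups compared gave 7171, 4485, 1 and, for day 14 against day 3, 0. Without the 3 libraries it was 4168, 3686, 514, 9 and 683 (day 7 and day 14 against day 3 last). Covariates gave 579 at day 3, 179 at day 14, 2 and 98. No filter gave 1406, 751, 26, 2 for day 14 against day 3 and 491 for Rag2. Voom gave 101 at day 14, 3 for day 14 against day 3 and 43 for Rag2, and library totals 6 and 4. With 1 library left out the range was 292 to 2409 at day 3, 128 to 2923 at day 7, 1 to 159 at day 14, 0 to 2 for day 7 against day 3, 0 to 1290 for day 14 against day 3 and 25 to 116 for Rag2. Lowest counts at day 3 and day 7 came without control replicate 3.

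A pairing of samples by the replicate numbers shared between groups was not shown. In wild type 12 of 24 same-number pairs correlated over 0.1, beside 28 of 72 different-number pairs, with median r of 0.104 and -0.00634. In Rag2 these were 0 of 3 and 1 of 6. A library correlated best with its own number in 16 of 48 cases in wild type and 2 of 6 in Rag2. The libraries also differed in tissue content, so this check cannot exclude a pairing. The replicate block gave 2 genes at day 14, 0 for day 14 against day 3 and 46 for Rag2, and a Pycard difference of -0.033 for day 14 against day 7.

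Sign changes were 71 in all, none with an adjusted p under 0.05. Against control, covariates gave Casp1 -0.066 and Il33 -0.15 at day 3 and Casp1 -0.94 and Il1r1 -0.20 at day 7, and leaving out the 3 libraries gave Il33 0.057 at day 7. For day 7 against day 3, the 3 libraries gave Il18 0.11 and Pycard 0.35, covariates Il1a -0.035 and Pycard 0.017, and voom Il1a -0.022. For day 14 against day 3, the 3 libraries gave Casp1 0.021, Il18 0.034, Il33 -0.067 and Pycard 0.28, and covariates Casp1 0.22, Il18 0.15, Il1a 0.0085 and Pycard 0.38. For day 14 against day 7, the 3 libraries gave Il18 -0.073, Il1r1 -0.0049 and Pycard -0.065, library totals Il18 -0.043, no filter Il18 -0.0010, covariates Il1a 0.043 and Il1rn 0.26, and voom Pycard -0.021.

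With 1 library left out, log2 values ranged as follows. At day 7, Casp1 was -0.23 to 0.35, Il1r1 -0.0030 to 0.26 and Il33 -0.22 to 0.068. For day 7 against day 3, Il18 was -0.27 to 0.19, Il1a -0.47 to 0.61 and Pycard -0.43 to 0.51. For day 14 against day 3, Casp1 was -0.89 to 0.46, Il18 -0.20 to 0.22, Il1a -0.82 to 0.0083, Il33 -0.11 to 0.43 and Pycard -0.43 to 0.68. For day 14 against day 7, Il18 was -0.15 to 0.24, Il1rn -0.49 to 0.40 and Pycard -0.23 to 0.41. Between Rag2 genotypes, Gsdmd was -0.22 to 0.47, Il18 -0.089 to 0.043, Il1a -0.14 to 0.67, Il1r1 -0.044 to 0.14 and Il1rn -0.32 to 0.77. The cause of these shifts was not tested. Depth limits Il1b and Nlrp3 in wild type.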
